A study of Mus musculus with 16 samples.

Results

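The genes described here are 10 genes of interleukins and their receptors, measured in microglia, the macrophages that live in the brain. These genes were chosen by symbol and comprise 4 interleukin genes (Il12b, Il15, Il16 and Il27) and 6 receptor genes (Il10ra, Il6ra, Il6st, Il4ra, Il13ra1 and Il21r). They stand among 53700 genes in the deposited files, of which 17090 had enough counts to be tested, and all 10 passed that filter. Flow cytometry took microglia out of whole mouse brain by a gate for DAPI-negative, CD11b-high, CD45-intermediate and Ly6c-negative cells, and the mice came from a C57Bl6J and FVB cross. The 4 groups were Ercc1 knockout (KO) mice at 6 weeks, wild-type (WT) mice at 6 weeks, KO mice at 12 weeks and WT mice at 12 weeks, with 4 libraries of bulk RNA each. Ercc1 encodes a subunit of a nuclease of DNA repair, and the series title calls these animals accelerated aging mice. The labels give the genotypes only as KO and WT, without the alleles. They do not say that each library came from a separate animal, so p-values measure the spread between libraries.

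Interleukins are secreted proteins by which immune cells signal to each other. Il12b encodes p40, the subunit that IL-12 and IL-23 share, and macrophages and dendritic cells make it when activated. Il27 encodes the alpha subunit of IL-27, which pairs with the product of Ebi3. Il15 encodes a growth factor of natural killer cells and memory T cells, and Il16 encodes a chemoattractant for CD4+ cells. Most of these receptors work as pairs of chains that activate JAK kinases and STAT transcription factors. Il10ra encodes the chain that binds IL-10, which restrains macrophage activation. Il6ra encodes the chain that binds IL-6, and Il6st encodes gp130, the signalling chain shared by the IL-6 family and IL-27. Il4ra and Il13ra1 together form the receptor that binds both IL-4 and IL-13. Il21r encodes the chain that binds IL-21 and pairs with the common gamma chain, the product of Il2rg.

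Promoter sequences are shown for Il12b and for 2 partner genes, Il2rg and Ebi3. These 3 genes were higher in KO than in WT microglia at 12 weeks. Each window runs from 250 bases before to 50 bases after the start of the gene, 5′ to 3′ on the gene's own strand, from RefSeq on build GRCm38.p6. The Il12b window is chr11:44399813-44400112 on the plus strand, the Il2rg window is chrX:101268206-101268505 on the minus strand, and the Ebi3 window is chr17:55952373-55952672 on the plus strand. Capitals mark a TATA box (TATANAA) in Il12b and an NF-kB consensus match in Ebi3.
Il12b: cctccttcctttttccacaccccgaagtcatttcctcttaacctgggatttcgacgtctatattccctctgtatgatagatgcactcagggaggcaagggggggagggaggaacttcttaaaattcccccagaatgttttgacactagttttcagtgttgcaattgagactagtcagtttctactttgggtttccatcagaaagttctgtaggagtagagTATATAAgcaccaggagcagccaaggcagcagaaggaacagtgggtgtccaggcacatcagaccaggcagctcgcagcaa
Il2rg: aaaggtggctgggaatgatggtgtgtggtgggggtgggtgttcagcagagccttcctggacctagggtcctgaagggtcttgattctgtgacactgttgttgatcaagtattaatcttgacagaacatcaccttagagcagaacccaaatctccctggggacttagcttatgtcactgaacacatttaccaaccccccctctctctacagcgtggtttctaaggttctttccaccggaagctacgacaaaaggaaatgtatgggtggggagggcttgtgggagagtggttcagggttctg
Ebi3: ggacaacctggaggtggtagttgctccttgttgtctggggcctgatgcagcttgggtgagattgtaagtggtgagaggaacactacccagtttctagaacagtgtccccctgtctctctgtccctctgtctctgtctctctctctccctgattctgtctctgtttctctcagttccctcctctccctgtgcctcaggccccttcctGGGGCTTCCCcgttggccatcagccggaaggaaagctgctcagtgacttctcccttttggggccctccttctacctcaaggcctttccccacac
The Il12b TATA box lay 30 to 24 bases before the start, and 11.3% of 32851 mouse promoter windows of this length held such a match on either strand. The Ebi3 match lay 44 to 35 bases before the start, and 4.51% of windows held one. The other 2 motifs searched on both strands were an interferon-response core (GAAA, any 2 bases, then GAAA, in 3.44% of windows) and a STAT site (TTCNNNGAA, in 8.3%), and neither occurred in these 3 windows. The table held 7 of the 10 genes, and Il15, Il27 and Il10ra were not among them. Of the other 6, Il16 had an NF-kB consensus match on both strands in 1 of its 3 windows and Il4ra had 1 match, while the windows of Il6ra, Il6st, Il13ra1 and Il21r matched none of the 4 motifs.

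Total counts per library ranged from 7882182 to 22142972. The targeted gene Ercc1 had 2.83 to 4.54 counts per 1000000 counted reads (CPM) in 6-week KO and 13.5 to 30.6 CPM in 6-week WT. It had 0.425 to 6.77 CPM in 12-week KO and 7.46 to 49.2 CPM in 12-week WT, so that no KO library reached a WT library of its age. All 10 microglial markers were present in every group. One library, the male-labelled 12-week WT replicate 5_6, which is also the deepest, held both 349.6 CPM of Xist and 112.6 CPM of Y-linked genes and so goes against its label. Smaller amounts from the other sex were in female-labelled 12-week KO replicate 3 (10.2 CPM of Y-linked genes beside 553.5 CPM of Xist). Male-labelled 12-week WT replicate 4 had 11.4 CPM of Xist beside 391.9 CPM of Y-linked genes. The 12-week calls of the named genes and the marker sums below are given with and without WT replicate 5_6. Without it Il12b and Il16 were again the calls among the 10 genes at 12 weeks by edgeR's quasi-likelihood test (the other 8 had adjusted p of 0.666 or more), and 0 were called between ages in WT. Mitochondrial transcripts took 0.328% to 0.405% of counts in 6-week KO and 0.182% to 0.253% in 6-week WT, and 0.491% to 0.680% in 12-week KO and 0.276% to 0.385% in 12-week WT. Their part in the results was not tested.

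Among the 10 genes, Il12b rose and Il16 fell in 12-week KO microglia, and the other 8 did not pass the test in any comparison. The test was edgeR's quasi-likelihood test with Benjamini-Hochberg adjustment over all 17090 genes and a threshold of 0.05. At 12 weeks 1 of 10 genes was called higher in KO, where 2.03% of all genes tested were, and 1 of 10 was called lower, where 0.954% were. In both directions together 2.98% of all genes were called. At 6 weeks 0 of 10 were called, against 0.872% of all genes, although DESeq2 called 1, Il12b. An unadjusted p under 0.05 was reached by 2 of 10 at 6 weeks, beside 1250 of all 17090 genes. At 12 weeks it was reached by 2 of 10, beside 2454 of all genes. For DESeq2 the share of all genes called is not given here. Median log2 fold changes of KO over WT over the 10 genes were -0.10 at 12 weeks and -0.04 at 6 weeks, and those over all genes tested were -0.03 and -0.02.

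Il12b transcripts were detected in KO microglia and in no WT library. In 6-week KO, replicates 1 to 4 had 20, 28, 16 and 0 counts of Il12b, which are 1.95, 1.61, 1.71 and 0 CPM on the TMM-scaled library sizes. All 4 of the 6-week WT libraries had 0 counts. Thus 3 of 4 KO libraries held low but countable Il12b at this age. In 12-week KO, replicates 1 to 4 had 79, 623, 66 and 90 counts, or 7.98, 66.2, 8.13 and 11.3 CPM. All 4 of the 12-week WT libraries again had 0 counts. Every 12-week KO library lay above every 6-week KO library, and replicate 2 lay far above the rest of its group. A count of 0 allows up to 3 counts, which is 0.132 to 0.376 CPM in a single library, for counting error only.

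At 12 weeks Il12b averaged 23.4 ± 28.6 CPM in KO and 0 CPM in WT (SD, n = 4 each). Set against a floor of 3 counts over the whole WT group, it was at least 406-fold higher in KO, with an adjusted p of 0.0169 by edgeR's quasi-likelihood test. The exact two-sided permutation test of the mean CPM gave p = 0.0286, the smallest value that 4 against 4 libraries allow. Replicate 2 carries much of this size: without it Il12b was at least 158-fold higher and the adjusted p was 0.0515, in a range of 1.91e-16 to 0.154 over 25 alternatives, of which 21 kept the call. Without WT replicate 5_6, the bound was at least 228-fold and the call was kept (adjusted p = 0.0381). Without WT replicates 3 and 8 together, the adjusted p was 0.0778.

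At 6 weeks Il12b averaged 1.32 ± 0.889 CPM in KO and 0 CPM in WT (SD, n = 4 each), at least 17.1-fold higher in KO. This difference did not pass the quasi-likelihood test (adjusted p = 0.291), and the exact permutation p was 0.143. DESeq2 gave an adjusted p of 0.00521 and the quasi-likelihood test without the filter on low counts gave 1.49e-05, within a range of 1.49e-05 to 0.626 over 24 alternatives. Within KO, the 12-week mean was 17.8 times the 6-week mean, and the log2 fold change was 4.05 ± 1.45 (SE). It did not pass the test either (adjusted p = 0.453, edgeR's quasi-likelihood test), and without 12-week replicate 2 the ratio was 6.94, the log2 fold change 2.91 ± 1.43 and the adjusted p 0.675. Whether the genotype effect differed between the ages could not be fitted for Il12b, because both WT groups had no counts.

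Transcripts of the subunits that join p40 in IL-12 and IL-23 were scarce. Il12a, which encodes the other subunit of IL-12, had 0 counts in all 16 libraries. Il23a, which encodes the other subunit of IL-23, had 67 counts in all 16 libraries together and averaged 0 CPM in 6-week KO, 0.545 CPM in 6-week WT, 0.982 CPM in 12-week KO and 0.0658 CPM in 12-week WT. In 12-week KO it was carried by replicate 2, at 3.83 CPM, the library with the most Il12b. Il12rb1, which encodes a receptor chain for p40, had 6 and 51 counts in 6-week KO replicates 1 and 2, 16 counts in 12-week KO replicate 1 and 0 counts in every other library. Il23r, which encodes the second chain of the IL-23 receptor, had 0 counts throughout. Il12rb2, which encodes the second chain of the IL-12 receptor, averaged 7.58 ± 8.74 CPM in 12-week KO and 3.10 ± 3.49 CPM in 12-week WT, and 6.11 ± 5.72 CPM in 6-week KO and 3.70 ± 1.32 CPM in 6-week WT (SD, n = 4 each). It did not pass at either age (adjusted p = 0.787 at 12 weeks and 1 at 6 weeks, edgeR's quasi-likelihood test).

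Il16 was lower in KO at both ages and passed the test at 12 weeks. In 12-week KO its levels were 146, 155, 147 and 143 CPM in replicates 1 to 4, against 216, 250.3, 206 and 179 CPM in 12-week WT replicates 3, 4, 5_6 and 8. Their means were 148 ± 5.13 CPM in KO and 213 ± 29.5 CPM in WT (SD, n = 4 each). The groups did not overlap, and the spread among KO libraries was narrow. The log2 fold change of KO over WT was -0.53 ± 0.11 (SE), with an adjusted p of 0.0109 by edgeR's quasi-likelihood test and an exact permutation p of 0.0286. Without WT replicate 3 it was -0.46 ± 0.12 and lost the call (adjusted p = 0.0607), in a range of 1e-04 to 0.145 over 25 alternatives, of which 21 kept it. Without WT replicate 5_6 it was -0.52 ± 0.12 and kept the call (adjusted p = 0.0282).

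At 6 weeks Il16 had 221, 197, 215 and 209.6 CPM in KO replicates 1 to 4, against 282, 235, 235 and 255 CPM in WT replicates 1 to 4. These groups did not overlap either, with means of 211 ± 9.90 CPM in KO and 252 ± 22.3 CPM in WT (SD, n = 4 each). The log2 fold change of -0.26 ± 0.11 did not pass edgeR's quasi-likelihood test (adjusted p = 0.541), while the exact permutation p was 0.0286. Groups did not overlap in the lower direction for 1 of 10 genes at 6 weeks and for 1 of 10 at 12 weeks (Il16 at both), beside 2.96% and 3.08% of all genes tested. In the higher direction it was 1 of 10 at 12 weeks (Il12b), beside 5.13% of all genes. The difference between the genotype effects at 12 and 6 weeks was -0.27 ± 0.15 and did not pass (adjusted p = 1.00, edgeR's quasi-likelihood test). Between ages, the 12-week KO libraries all lay below the 6-week KO libraries, by -0.53 ± 0.11 (adjusted p = 0.12, edgeR's quasi-likelihood test), and DESeq2 alone called this (adjusted p = 0.00135, in a range of 0.00135 to 0.319 over 24 alternatives).

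Il15 and Il27 were present at low levels in all 16 libraries and did not pass the test in any comparison. Il15 ranged from 7.07 to 10.2 CPM in 6-week KO and from 6.51 to 10.7 CPM in 6-week WT, and from 5.01 to 21.2 CPM in 12-week KO and from 7.89 to 35.1 CPM in 12-week WT. Its log2 fold changes of KO over WT were 0.19 ± 0.45 at 6 weeks and -0.31 ± 0.45 at 12 weeks. The Il15 values were more spread at 12 weeks in both genotypes, and the 12-week WT mean of 18.1 ± 12.0 CPM, against 7.77 ± 1.94 CPM in 6-week WT, was a log2 difference of 1.07 ± 0.47 (adjusted p = 0.623, edgeR's quasi-likelihood test).

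Il27 ranged from 2.99 to 4.97 CPM in 6-week KO and from 2.37 to 5.82 CPM in 6-week WT. At 12 weeks it ranged from 1.11 to 9.78 CPM in KO and from 3.38 to 7.03 CPM in WT, so that KO replicates 2 and 4, at 8.50 and 9.78 CPM, lay above every WT library and replicates 1 and 3, at 2.42 and 1.11 CPM, below every one. The log2 fold changes of KO over WT were 0.06 ± 0.62 at 6 weeks and 0.03 ± 0.65 at 12 weeks. The 95% interval at 12 weeks ran from -1.24 to 1.3.

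**Figure D1:**
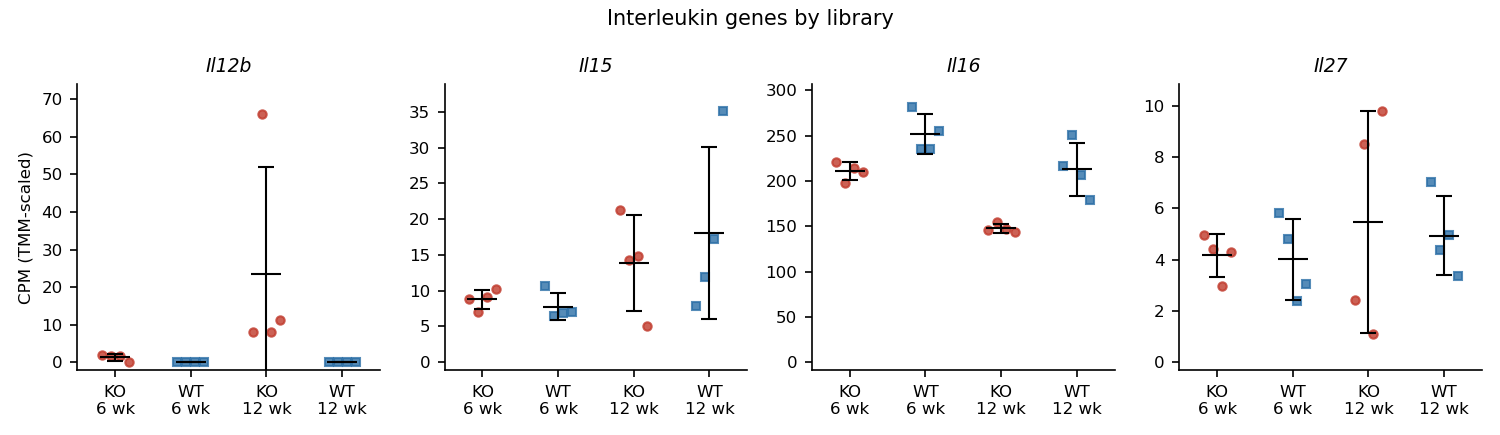
Levels of the 4 interleukin genes in CPM on TMM-scaled library sizes (vertical axis, linear), by group (KO red circles, WT blue squares, 6 weeks left and 12 weeks right). Each point is 1 library and black bars are the mean ± SD of 4 libraries (the lower end of the Il12b bar in 12-week KO, below 0, is cut by the axis). Il12b is at 0 in all 8 WT libraries and reaches 66.2 CPM in 1 KO library at 12 weeks, and Il16 in 12-week KO (143 to 155 CPM) lies below every other group.

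The 6 receptor genes were expressed in every library, and no KO against WT comparison of them passed the test. Il10ra ranged from 204 to 337 CPM in 6-week KO and from 204 to 397 CPM in 6-week WT, and from 194 to 322 CPM in 12-week KO and from 257 to 352 CPM in 12-week WT. Its log2 fold changes of KO over WT were -0.10 ± 0.21 at 6 weeks and -0.23 ± 0.21 at 12 weeks (95% interval from -0.65 to 0.19). KO and WT libraries of Il10ra overlapped at both ages. Il10rb, which encodes the second chain of the IL-10 receptor, averaged 193 CPM in 12-week KO and 153 CPM in 12-week WT, a log2 difference of 0.34 ± 0.14 that did not pass (adjusted p = 0.247, edgeR's quasi-likelihood test).

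Il6ra had a similar mean in both genotypes at 6 weeks, 464 ± 45.7 CPM in KO and 471 ± 168 CPM in WT (SD, n = 4 each). WT replicate 3 stood low there, at 222 CPM, where the other WT libraries had 526 to 586 CPM. At 12 weeks the means were 290.0 ± 84.4 CPM in KO and 358 ± 105 CPM in WT, a log2 difference of -0.31 ± 0.29. Between ages, all 12-week KO libraries (186 to 360.5 CPM) lay below all 6-week KO libraries (422 to 526 CPM). This log2 difference of -0.67 ± 0.29 did not pass edgeR's quasi-likelihood test (adjusted p = 0.533).

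Il6st, the signalling partner of Il6ra, averaged 309 ± 45.9 CPM in KO and 343 ± 21.4 CPM in WT at 6 weeks, and 225 ± 57.5 CPM in KO and 233 ± 74.1 CPM in WT at 12 weeks (SD, n = 4 each). Its log2 fold changes of KO over WT were -0.14 ± 0.21 and -0.04 ± 0.21. Between ages, 12-week WT libraries (129 to 303 CPM) were all below 6-week WT libraries (311 to 357 CPM), by -0.62 ± 0.22, and in KO the log2 difference was -0.52 ± 0.22 with overlapping groups. Neither passed edgeR's quasi-likelihood test (adjusted p = 0.521 in WT and 0.516 in KO).

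The IL-4 and IL-13 receptor chains Il4ra and Il13ra1 did not differ detectably by genotype. Il4ra ranged from 48.6 to 72.7 CPM in 6-week KO and from 42.4 to 56.2 CPM in 6-week WT, a log2 difference of 0.27 ± 0.26. At 12 weeks it ranged from 40.4 to 60.7 CPM in KO and from 32.8 to 75.3 CPM in WT, a log2 difference of 0.12 ± 0.26, with the highest value in WT replicate 8. Il13ra1 averaged 224 ± 35.0 CPM in KO and 232 ± 42.0 CPM in WT at 6 weeks, and 166 ± 11.5 CPM in KO and 182 ± 60 CPM in WT at 12 weeks (SD, n = 4 each). Its log2 fold changes of KO over WT were -0.05 ± 0.20 and -0.13 ± 0.21. Like Il16 and Il6ra, Il13ra1 was lower in every 12-week KO library (156 to 180.3 CPM) than in any 6-week KO library (185 to 262 CPM), by -0.45 ± 0.21 (adjusted p = 0.56, edgeR's quasi-likelihood test).

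At 6 weeks Il21r had 91.4 ± 9.83 CPM in KO and 96.6 ± 2.72 CPM in WT. At 12 weeks it had 78.2 ± 16.8 CPM in KO and 82.1 ± 20.4 CPM in WT (SD, n = 4 each). The log2 fold changes of KO over WT were -0.08 ± 0.19 and -0.07 ± 0.19, with 95% intervals from -0.45 to 0.28 and from -0.43 to 0.30.

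**Figure D2:**
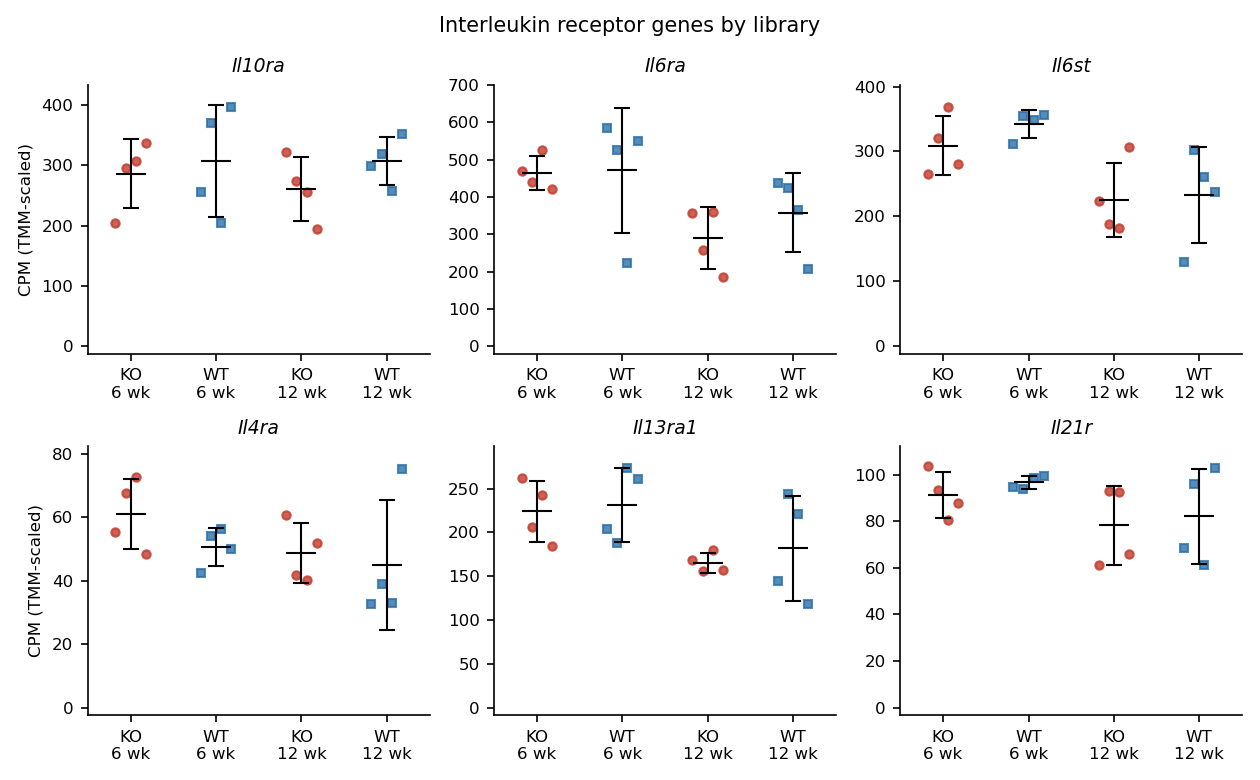
Levels of the 6 interleukin receptor genes in CPM on TMM-scaled library sizes (vertical axes, linear, from 0), by group (KO red circles, WT blue squares). Each point is 1 library and black bars are the mean ± SD of 4 libraries; KO and WT overlap at both ages for each gene, and Il6ra and Il13ra1 in 12-week KO lie below 6-week KO.

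**Figure D3:**
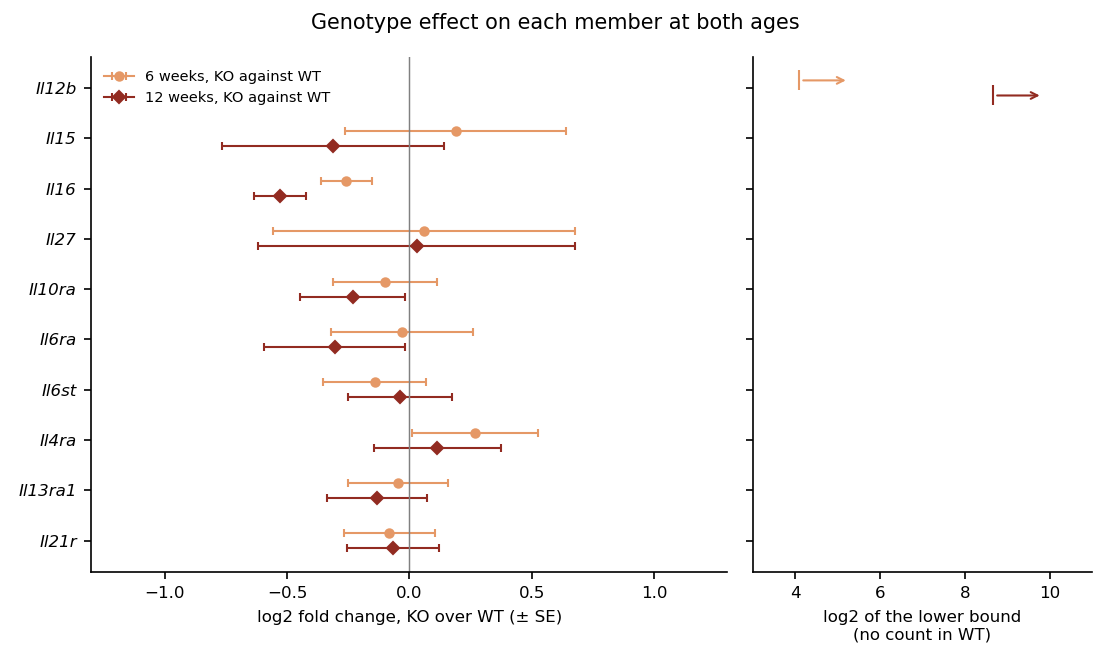
Log2 fold change of KO over WT with its standard error for 9 genes (left panel, horizontal axis), at 6 weeks (orange circles) and 12 weeks (dark red diamonds). The right panel gives the log2 of the lower bound for Il12b, whose WT groups had no count (ticks with arrows, at least 17.1-fold at 6 weeks and at least 406-fold at 12 weeks); among the others, Il16 at 12 weeks (-0.53) lies farthest below 0.

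Age alone called none of these genes. In KO 0 of 10 were called between 12 and 6 weeks (0.0234% of all genes were) by edgeR, and 1 was called by DESeq2. An unadjusted p under 0.05 was reached by 5 of 10, beside 1504 of all 17090 genes. In WT 0 of 9 were called (0.0117% of all genes), and 0 by DESeq2. An unadjusted p under 0.05 was reached by 3 of 9, beside 1271 of all 17090 genes. Median log2 differences of 12 over 6 weeks were -0.28 in KO and -0.25 in WT, and over all genes tested both medians were -0.02. In KO 3 of 10 genes had no overlap in the lower direction (Il16, Il6ra and Il13ra1), against 3.51% of all genes, and 1 of 10 in the higher direction (Il12b), against 3.05%. In WT 1 of 10 had no overlap, Il6st in the lower direction, against 3% of all genes. The KO and WT age comparisons share no libraries, but each shares its libraries with the genotype comparisons.

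The effect of genotype did not differ detectably between the ages for the 9 genes that could be fitted. Their differences, the effect at 12 weeks minus that at 6 weeks, ran from -0.50 for Il15 to 0.11 for Il6st. By edgeR 0 of 9 were called (0.00585% of all genes were), and DESeq2 called 0. An unadjusted p under 0.05 was reached by 0 of 9, beside 810 of all 17090 genes.

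Levels can be compared between genes per kilobase of exon, with exon lengths from the GENCODE annotation of build GRCm38. On this scale Il10ra was highest in every group, at 81.7 ± 16.3 CPM per kilobase in 6-week KO, 87.7 ± 26.4 in 6-week WT, 74.6 ± 15.1 in 12-week KO and 87.6 ± 11.4 in 12-week WT (SD, n = 4 each). Il13ra1 had rank 2 and Il6ra rank 3 in every group. In 12-week KO these were 44.6 ± 3.10 and 33.5 ± 9.77 CPM per kilobase, a gap close to their spread. Il12b was the lowest of the 10 genes in 6-week KO and in both WT groups, at 0.669 ± 0.452 CPM per kilobase in 6-week KO and 0 in WT. In 12-week KO it had rank 7 of 10, at 11.9 ± 14.5 CPM per kilobase, a spread that reaches Il16 (18.8 ± 0.652) above it and Il4ra (8.12 ± 1.58), Il15 (6.12 ± 2.95) and Il27 (5.34 ± 4.23) below it. That rank rests on replicate 2, without which Il12b had rank 9 of 10, at 4.64 CPM per kilobase.

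Wider lists of interleukin and receptor genes showed few other calls. Of 32 further ligand genes 12 had a count and 7 were tested. Ebi3 encodes the subunit shared by IL-27 and IL-35. It was the 1 of 7 called higher in KO than in WT at 12 weeks, and 0 were called lower by edgeR or DESeq2. It had 44.6, 57.2, 71.7 and 41.9 CPM in KO replicates 1 to 4, against 20.4, 32.1, 31.5 and 29.8 CPM in WT replicates 3, 4, 5_6 and 8. The groups did not overlap, and the log2 fold change was 0.93 ± 0.22 (adjusted p = 0.028, edgeR's quasi-likelihood test). This call was kept in 18 of 25 alternatives, in a range of adjusted p from 0.00118 to 0.287. It was lost without WT replicate 3 (0.0875), without KO replicate 2 (0.0747), without KO replicate 3 (0.0783) and without WT replicates 3 and 8 together (0.21). Without WT replicate 5_6 it was kept (0.0447). At 6 weeks Ebi3 averaged 52.5 ± 7.88 CPM in KO and 39.3 ± 5.46 CPM in WT and did not pass (adjusted p = 0.758, edgeR's quasi-likelihood test). Its 12-week means were 53.8 ± 13.6 CPM in KO and 28.5 ± 5.44 CPM in WT. From 6 to 12 weeks the log2 difference was 0.022 ± 0.215 in KO and -0.494 ± 0.220 in WT. Neither passed (adjusted p = 0.993 and 0.636, edgeR's quasi-likelihood test). The median log2 fold changes of the 7 ligand genes were 0.00 at 12 weeks and 0.27 at 6 weeks.

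Of 32 further receptor genes 21 had a count and 16 were tested. Il2rg rose at both ages and Lifr fell at 12 weeks, and these were the calls among the 16 by edgeR's quasi-likelihood test. DESeq2 called 4 at 12 weeks (Il2rg, Lifr, Csf2rb2 and Il27ra) and 2 at 6 weeks (Il2rg and Lifr). Csf2rb2 and Il27ra, named after their values were seen, averaged 25.8 ± 9.07 and 1.87 ± 2.09 CPM in 12-week KO, against 10.2 ± 3.97 and 0 CPM in 12-week WT (adjusted p = 0.0791 and 0.148, edgeR's quasi-likelihood test). Il2rg, the common gamma chain of the receptors for IL-2, IL-4, IL-15 and IL-21 among others, had 62.3, 145, 51.1 and 70.7 CPM in 12-week KO replicates 1 to 4, against 3.68, 3.99, 7.67 and 3.48 CPM in 12-week WT. At 6 weeks it had 42.0, 48.6, 60.4 and 43.6 CPM in KO, against 7.33, 6.62, 3.08 and 8.01 CPM in WT. No KO library came near a WT library at either age. By edgeR's quasi-likelihood test the log2 fold change at 12 weeks was 4.09 ± 0.39, with an adjusted p of 2.08e-05. The 6-week value was 3.02 ± 0.38, with an adjusted p of 0.000653 by the same test. Each of the 25 alternatives kept both Il2rg calls, and without WT replicate 5_6 the 12-week value was 4.44 ± 0.43. The difference between the ages, 1.07 ± 0.50, did not pass (adjusted p = 1.00, edgeR's quasi-likelihood test).

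Lifr, a gp130-paired receptor chain for leukemia inhibitory factor, averaged 155 ± 17.95 CPM in 12-week KO and 219.8 ± 30.6 CPM in 12-week WT (SD, n = 4 each). The log2 fold change was -0.50 ± 0.11 (adjusted p = 0.0218, edgeR's quasi-likelihood test), and 15 of 25 alternatives kept the call, in a range from 0.000826 to 0.227. It was lost without WT replicate 3, 4 or 5_6 (0.0781, 0.0828 and 0.0546) and without KO replicate 1, 2 or 3 (0.0842, 0.0916 and 0.0662). At 6 weeks it averaged 189 ± 14.7 CPM in KO and 263 ± 28.9 CPM in WT, a log2 fold change of -0.47 ± 0.11 that did not pass (adjusted p = 0.0727, edgeR's quasi-likelihood test). It was called in 2 of 25 alternatives, by DESeq2 (0.00265) and without 12-week WT replicate 8 (0.0489), in a range up to 0.254. The median log2 fold changes of the 16 receptor genes were 0.31 at 12 weeks and 0.53 at 6 weeks.

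Among the JAK kinases and STAT factors downstream of these receptors (11 listed, 10 tested), Stat2, which also carries interferon signals, rose in 12-week KO, and 0 genes were called lower by edgeR. Stat2 had 88.5, 91.9, 57.6 and 39.7 CPM in KO replicates 1 to 4, against 13.1, 25.45, 28.8 and 24.3 CPM in WT replicates 3, 4, 5_6 and 8. The groups did not overlap, with means of 69.4 ± 25.1 CPM in KO and 22.9 ± 6.81 CPM in WT (SD, n = 4 each). Its log2 fold change was 1.6 ± 0.32 (adjusted p = 0.0102, edgeR's quasi-likelihood test). This call was kept in 22 of 25 alternatives, in a range from 9.42e-07 to 0.24, and was lost without WT replicates 3 and 8 together (adjusted p = 0.106). Without WT replicate 5_6 it was kept (adjusted p = 0.0157). At 6 weeks it averaged 54.95 ± 18.2 CPM in KO and 36.6 ± 6.85 CPM in WT, a log2 fold change of 0.59 ± 0.31 that did not pass (adjusted p = 0.773, edgeR's quasi-likelihood test). Stat5b, a related factor named after its values were seen, was the 1 gene with a negative log2 fold change and an unadjusted p under 0.05 at 12 weeks (-1.07 ± 0.31), with 21.9 ± 7.59 CPM in KO and 45.8 ± 13.99 CPM in WT. DESeq2 called it and edgeR's quasi-likelihood test did not (adjusted p = 0.08). The list's median log2 fold changes were 0.31 at 12 weeks and 0.14 at 6 weeks.

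Among known regulators of Il12b transcription (11 listed, 10 tested), Atf3, a factor that restrains inflammatory genes in macrophages, was the 1 gene called higher at 12 weeks by edgeR, and 0 were called lower. DESeq2 also called Irf1, an interferon regulatory factor named after its values were seen, which averaged 76.7 ± 7.78 CPM in KO and 50.4 ± 14.7 CPM in WT (log2 fold change 0.63 ± 0.19, adjusted p = 0.108, edgeR's quasi-likelihood test). Atf3 averaged 33.3 ± 16.7 CPM in KO and 10.9 ± 5.25 CPM in WT (log2 fold change 1.63 ± 0.42, adjusted p = 0.0479, edgeR's quasi-likelihood test). This call was kept in 9 of 25 alternatives, in a range from 0.000355 to 0.306. It was lost without 6-week WT replicate 1 or 3, any 6-week KO library, 12-week WT replicate 3, 4 or 8, or 12-week KO replicate 1, 3 or 4, where the adjusted p lay between 0.0566 and 0.16, and without WT replicates 3 and 8 together (0.306). Without WT replicate 5_6 it was kept (0.0477). At 6 weeks 0 of 10 were called by edgeR and 0 by DESeq2. An unadjusted p under 0.05 was reached by 2 of 10 there, beside 1250 of all 17090 genes. The medians were 0.03 at 12 weeks and 0.11 at 6 weeks.

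The feedback inhibitors of these receptors, the SOCS and PIAS families, Cish and phosphatases (16 listed, 15 tested), had 0 calls by edgeR at either age. An unadjusted p under 0.05 was reached by 3 of 15 at 12 weeks and by 1 of 15 at 6 weeks. Over all 17090 genes it was reached by 2454 and 1250. DESeq2 called 0 at both ages, and the medians were -0.01 and -0.14. Genes known to respond to IL-4 and IL-13 (12 listed, 8 tested) also had 0 calls by edgeR. An unadjusted p under 0.05 was reached by 5 of 8 at 12 weeks and by 3 of 8 at 6 weeks, beside the same 2454 and 1250 genes. DESeq2 called 3 at 12 weeks (Arg1, Mrc1 and Ccl22) and 0 at 6 weeks. Arg1 and Ccl22 averaged only 1.11 ± 2.02 and 3.16 ± 3.58 CPM in 12-week KO (SD, n = 4). Both had 0 CPM in 12-week WT. The medians were 2.27 at 12 weeks and 0.83 at 6 weeks, over genes of which 2 had no count in 1 group at each age. Mrc1 is also a marker of border macrophages and averaged 57.1 ± 16.4 CPM in KO and 13.5 ± 8.86 CPM in WT at 12 weeks (SD, n = 4 each; adjusted p = 0.0926, edgeR's quasi-likelihood test).

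**Figure D4:**
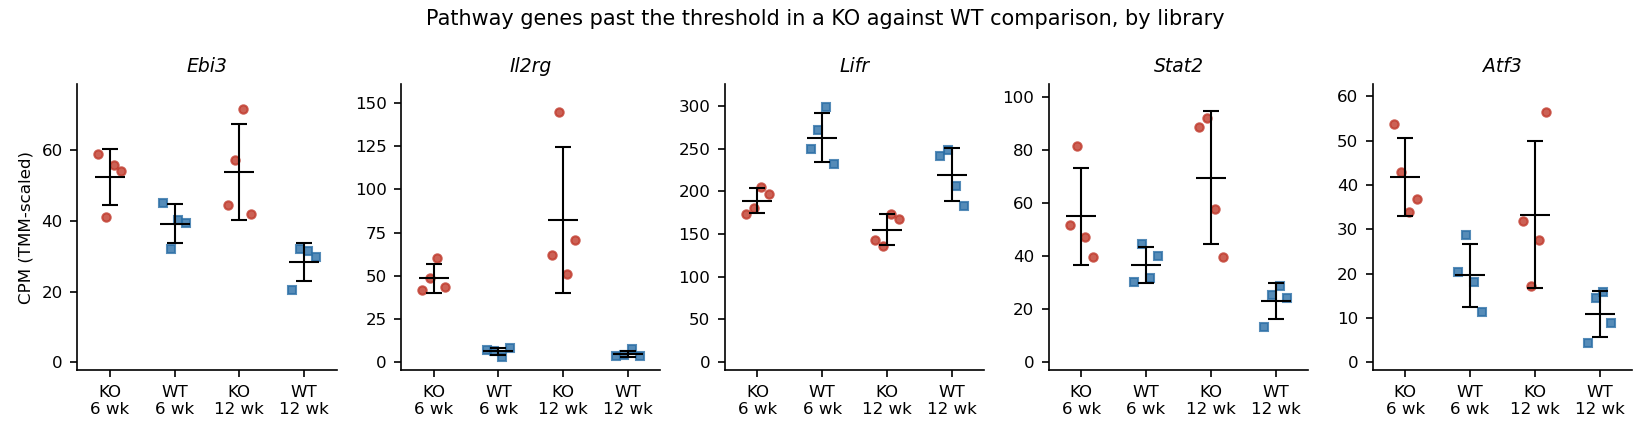
Levels of 5 list genes past the threshold in a comparison of KO with WT (Ebi3, Il2rg, Lifr, Stat2 and Atf3), in CPM on TMM-scaled library sizes (vertical axes, linear), by group (KO red circles, WT blue squares). Each point is 1 library and black bars are the mean ± SD of 4 libraries; Il2rg in KO (42.0 CPM or more) lies above every WT library (8.01 CPM or less) at both ages.

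Marker lists of microglia and of other cells that the sort could hold moved with genotype too. The 10 microglial markers summed to 51359 to 54005 CPM in 12-week KO and 65105 to 72738 CPM in 12-week WT, and to 59812 to 70249 CPM in 6-week KO and 71753 to 78529 CPM in 6-week WT. Of these markers 3 of 10 were called lower at 12 weeks by edgeR's quasi-likelihood test, where 0.954% of all genes were. At 6 weeks 1 of 10 was called lower, where 0.872% of all genes were called in either direction. DESeq2 called 5 of the 10 at 12 weeks and 3 at 6 weeks. Border macrophage markers, 10 of 10 present in KO, summed to 122 to 192 CPM in 12-week KO and 10.5 to 55.5 CPM in 12-week WT, and to 147 to 318 CPM in 6-week KO and 53.7 to 97.6 CPM in 6-week WT, where Siglec1 was at 0. Of these 10 markers edgeR called 1 higher at 12 weeks, where 2.03% of all genes were, and 0 at 6 weeks. DESeq2 called 5 at 12 weeks and 2 at 6 weeks. Monocyte markers summed to 15.1 to 31.6 CPM in 12-week KO (5 of 8 present) and 1.08 to 11.4 CPM in 12-week WT (3 of 8), with Ly6c2 and Chil3 at 0 in both. At 6 weeks they summed to 9.37 to 36.7 CPM in KO (4 of 8) and 6.25 to 18.7 CPM in WT (7 of 8). Of the 3 monocyte markers tested edgeR called 0 at either age, and DESeq2 called 2 at 12 weeks and 0 at 6 weeks. Border macrophage sums thus lay higher in every KO library than in any WT library at both ages, as Il2rg did. Microglial sums lay lower in every KO library than in any WT library at both ages. Monocyte sums separated KO from WT at 12 weeks only, where they were higher in KO. The part of all these markers in the changes of Il12b, Il16, Il2rg, Ebi3, Lifr, Stat2 and Atf3 was not tested.

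Dendritic cell markers summed to 124 to 228.5 CPM in 12-week KO (8 of 9 present) and 163 to 349.8 CPM in 12-week WT (7 of 9), and to 263 to 342 CPM in 6-week KO and 339.8 to 527 CPM in 6-week WT, with Clec9a at 0 in all groups and Ccr7 at 0 in both WT groups. T and NK cell markers summed to 0 to 9.60 CPM in 12-week KO (4 of 14) and 4.46 to 10.97 CPM in 12-week WT (3 of 14), and to 3.31 to 8.45 CPM in 6-week KO and 3.99 to 8.01 CPM in 6-week WT, with Cd8a, Cd2, Ncr1 and Nkg7 at 0 in all groups. For B cells the sums were 974 to 1040.2 CPM in 12-week KO and 1009.6 to 1167 CPM in 12-week WT, and 1008 to 1165 CPM in 6-week KO and 1067 to 1229.6 CPM in 6-week WT, with Pax5 at 0 in all groups but 12-week WT. Neutrophil markers summed to at most 8.71 CPM in 12-week KO, 0.190 CPM in 12-week WT, 2.01 CPM in 6-week KO and 75.2 CPM in 6-week WT (in replicate 2), with Ly6g at 0 in all groups. The dendritic, T and NK, and B cell sums overlapped between KO and WT at both ages, and in bulk RNA fewer cells of a type and less RNA per cell cannot be told apart. Most of the dendritic sum was Fscn1, which averaged 136.5 CPM in 12-week KO, 188.5 CPM in 12-week WT, 265 CPM in 6-week KO and 369 CPM in 6-week WT. Most of the B cell sum was Ighm, at 959 CPM in 12-week KO and 1001 CPM in 12-week WT. These sums thus mainly follow a single gene. Without 12-week WT replicate 5_6 the lowest dendritic sum of that group was 176 CPM, and no other marker range changed.

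The genes whose pattern was most like that of Il12b were Cpd, B2m, Cd84, Cxcl10 and H2-K1. Likeness was Pearson's r of log2 CPM over the 16 libraries, which share genotype, age and library preparation, among 9851 genes with a mean of at least 5 CPM, and it is a description only. The values of r were 0.963 for Cpd, a carboxypeptidase, 0.942 for B2m, the light chain of MHC class I, 0.941 for Cd84, an immune cell surface receptor, 0.933 for Cxcl10, an interferon-induced chemokine, and 0.928 for H2-K1, an MHC class I heavy chain. The 12-week KO replicate 2, which had the most Il12b, also had the most Cpd, B2m, Cxcl10 and H2-K1 of all 16 libraries. These genes were picked by r over the same libraries. A high or low library shared with Il12b therefore follows from that choice and is no separate result.

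Cxcl10 had 13.8, 104, 30.4 and 23.4 CPM in 12-week KO replicates 1 to 4, against 0, 0.95, 0.175 and 0 CPM in 12-week WT. B2m had 4159, 5518, 3225 and 3707 CPM in 12-week KO replicates 1 to 4, against 1564, 1446, 1469 and 1653 CPM in 12-week WT. For Cd84, replicate 4 (505 CPM) was slightly above replicate 2 (502 CPM). At the low end for Il12b was 6-week KO replicate 4, with no Il12b count. This library also had the least Cpd (40.2 CPM), B2m (2575 CPM), Cd84 (318 CPM), Cxcl10 (1.55 CPM) and H2-K1 (484 CPM) of the KO libraries. Among the 10 genes themselves Il16 had the most negative likeness to Il12b (r = -0.79), and those of the others with a mean of at least 5 CPM lay between -0.35 for Il10ra and 0.12 for Il4ra.

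**Figure D5:**
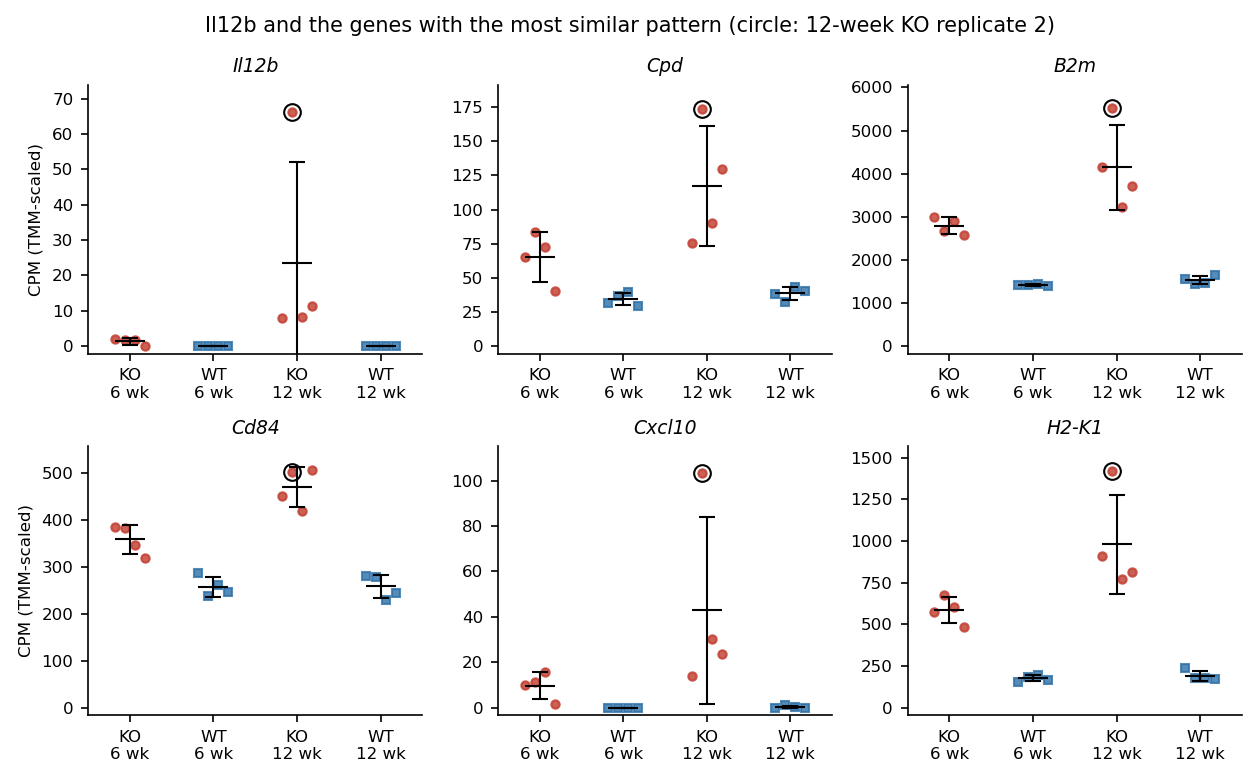
Levels of Il12b and of the 5 genes most like it, in CPM on TMM-scaled library sizes (vertical axes, linear), by group (KO red circles, WT blue squares, 1 point per library, black bars mean ± SD of 4 libraries, cut at the axis for Il12b). The ringed point is 12-week KO replicate 2, which is highest in each panel except Cd84, where replicate 4 has 505 CPM and replicate 2 has 502 CPM.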

How the data were processed

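RNA was measured in sorted microglia of 4 groups with 4 libraries each. The authors deposited raw counts per gene and library. Per the submitters' processing notes, FastQC 0.11.9, cutadapt 2.10, TopHat, SAMtools 1.10, Picard 2.13.2 and HTSeq 0.11.0 were used with build GRCm39. No source used here gives the annotation release, the strand setting or the handling of reads shared between genes, so antisense or overlapping transcripts could add to a gene's count. A deposited table of counts for the whole series equalled the counts per library (100% of values, exact match) and was used for that check.

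Counts were analysed in R 4.3.3 with edgeR 4.0.16. Genes were kept with filterByExpr (minimum count 10), and library sizes were scaled by TMM. The quasi-likelihood fit (robust) took all 16 libraries, with terms for group and for sex as labelled. Its two-sided p-values were adjusted with the Benjamini-Hochberg method across 17090 genes, with a threshold of 0.05. The standard error is the absolute log2 change over the square root of F. CPM values use the scaled library sizes, and Xist and Y-linked genes the unscaled ones. A group with no count was set to 3 counts over the group to give a lower bound. Floors cover counting error only, since reads without molecular identifiers are not independent molecules. Intervals of log2 fold changes are the estimate plus or minus a normal quantile times the standard error. They therefore include the spread between libraries, but make no allowance for the small number of libraries. Exact permutation tests were run on CPM. No 2 libraries of a group agreed within sampling noise (chi-square per gene of 16.8 to 60.4). Scripts were tested on simulated data.

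Alternatives were DESeq2 1.42.0, its size factors in edgeR, no filter, a minimum count of 30, no term for sex, fitting only the groups compared, replicate blocks, and leaving out libraries. The genes and the 6 pathway and 7 marker lists were chosen with earlier results of these data known. All 10 genes are named, with list genes past the threshold in a comparison of KO with WT (1 such gene is not reported here) and the 5 genes most like Il12b by r. Promoter sequences came from RefSeq and exon lengths from GENCODE, both on GRCm38, and were matched by symbol.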

Additional observations from a re-analysis of the deposited data

Results flagged for a closer look

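Within the 40 combinations of the 10 genes and 4 groups, 4 had 1 library far from the other 3 (a gap to the nearest library, relative to the range of the group, above Dixon's critical value). Chance flags about 1 in 20 such groups. Il12b in 12-week KO replicate 2 had 66.2 CPM, and the next highest library had 11.3 CPM. Il15 in 6-week WT replicate 1 had 10.7 CPM, and the next highest had 7.04 CPM. Il6ra in 6-week WT replicate 3 had 221.9 CPM, and the next lowest had 526 CPM. Il4ra in 12-week WT replicate 8 had 75.3 CPM, and the next highest had 39.0 CPM.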

How the results depend on the processing

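Of 48 results (a gene in a comparison), 24 kept their sign and 41 their side of the threshold under every one of the 25 alternatives that gave a value, 16 of which leave out 1 library. Il12b and Il16 kept their sign throughout. Of the 10 genes, 2 were called at 12 weeks, against 1 without the filter on low counts (Il12b), 1 with only the groups compared (Il12b), 1 without WT replicates 3 and 8 together (Il16) and 1 to 2 on leaving out 1 library. At 6 weeks 0 were called, against 1 without the filter and 1 by DESeq2 (both Il12b). Between ages 0 were called in KO, against 2 without the filter (Il12b and Il6ra) and 1 by DESeq2 (Il16), and 0 in WT, against 1 without the filter (Il6st). The cause was not tested. The 12-week calls of Ebi3, Lifr and Atf3 were lost with only the groups compared, that of Lifr also without the filter, and those 3 and Stat2 with either replicate block. Same-numbered KO and WT libraries of an age had the same labelled sex. Their correlations of deviations ran from -0.011 to 0.062, which cannot decide whether the numbers pair them, since paired libraries need not deviate together. With a replicate block within each age 0 genes were called at 12 weeks, where adjusted p was 0.146 for Il12b and 0.127 for Il16. With a replicate block by number across ages, chosen after seeing the data, 1 was called (Il16). The block within age gives no value for the age comparisons, and with only the groups compared no difference of effects can be fitted. DESeq2 gave no adjusted p for Il12b, Il15 and Il27 in KO between ages.

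Signs turned for 24 results, none of which had passed the test, with values in the reported fit from -0.50 (Il15 in the difference of effects) to 0.26 (Il27 between ages in WT). With the replicate block across ages, log2 values were 0.28 for Il15, -0.65 for Il27 and 0.19 for Il6st at 12 weeks, 0.05 for Il10ra between ages in WT, and 0.05 for Il15, 0.17 for Il4ra and -0.01 for Il21r in the difference of effects. With the block within age they were -0.68 for Il27 and 0.26 for Il6st at 12 weeks, 0.05 for Il6ra at 6 weeks and 0.10 for Il4ra in the difference of effects. With only the groups compared they were 0.02 for Il6st at 12 weeks, 0.01 for Il6ra at 6 weeks and -0.12 for Il27 between ages in KO. Il10ra between ages in WT was 0.01 with DESeq2 and 0.01 with its size factors, and Il27 in the difference of effects was 0.08 without the term for sex. Without 12-week WT replicates 3 and 8, Il27 was -0.19 and Il13ra1 0.02 between ages in WT, and Il27 was 0.24, Il6st -0.17 and Il4ra 0.15 in the difference of effects.

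On leaving out 1 library, KO over WT at 12 weeks ran from -0.54 to 0.21 for Il15, -0.36 to 0.51 for Il27, -0.22 to 0.12 for Il6st, -0.01 to 0.52 for Il4ra, -0.26 to 0.05 for Il13ra1 and -0.17 to 0.09 for Il21r. At 6 weeks it ran from -0.11 to 0.28 for Il27, -0.27 to 0.05 for Il10ra, -0.31 to 0.10 for Il6ra and -0.14 to 0.06 for Il13ra1. Between ages it ran from -0.16 to 0.74 for Il27 and -0.31 to 0.00 for Il10ra in KO, and from -0.33 to 0.46 for Il27, -0.16 to 0.17 for Il10ra and -0.52 to 0.03 for Il4ra in WT. The difference of effects ran from -0.73 to 0.02 for Il15, -0.42 to 0.44 for Il27, -0.28 to 0.07 for Il10ra, -0.44 to 0.03 for Il6ra, -0.07 to 0.28 for Il6st, -0.27 to 0.26 for Il4ra, -0.21 to 0.11 for Il13ra1 and -0.09 to 0.17 for Il21r. Lists rest on few counted genes, and depth limits Il12b in WT to the bounds given.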
